A study of Talpa occidentalis with 6 samples.

Results

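The gene annotation of the Iberian mole (Talpa occidentalis) held 178 tandem arrays, meaning runs of gene models that carry the same gene symbol on the same scaffold and strand. Arrays were chosen from the annotation's own positions. A symbol was kept when at least 3 of its models lay in 1 run with each start within 100 kb of the next, and when no more than 2 further models lay elsewhere. A model's symbol was its identifier without the copy number, and CYP17A1 was left out. The annotation had 23336 gene models with 18052 symbols, of which 724 had 3 or more models. The rule was met by 0.986% of all symbols and by 24.6% of the symbols with 3 or more models, and the arrays took in 646 models.

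The annotation was deposited with a study of open chromatin in mole gonads. That study had 6 samples, all from wild-type moles at postnatal day 7. It profiled 2 samples of testis and, from the ovotestis that mole females carry, 2 samples of the testicular and 2 of the ovarian part. The annotation belongs to none of the samples, so the arrays have no replicates and no value per tissue, and nothing below compares tissues.

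Tandem arrays of real genes arise when a stretch of DNA is duplicated next to itself, and they are best known in families that meet a changing environment, such as olfactory receptors, cytochromes P450 and immune receptors. An olfactory receptor gene usually has its whole coding sequence in a single exon. In an automatic annotation, however, neighbouring models with the same symbol can be either separate genes or pieces of 1 gene. Each model in the deposited annotation also names the reference sequence it was aligned to and the stretch of it that aligned, and this stretch, which the rule did not use, separates the layouts described here.

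Pairs of copies from the same array aligned either to the same stretch of the reference or to different stretches, with very few in between. Overlap was taken as a percentage of the shorter of the 2 alignments, so a short alignment inside a longer one counts as full overlap. In 73 arrays the copies aligned to more than 1 reference sequence of that symbol. Positions were then compared across sequences that may be numbered differently. Of 1027 pairs, 17 in PACS2, OR11G2, OR11H6 and OR6N2 were not compared, because 1 copy was aligned in bases and the other in residues. Of the remaining 1010 pairs, 362 (35.8%) overlapped by less than 20%, 639 (63.3%) by at least 50%, and 9 (0.891%) lay in between. Large arrays give many pairs, and olfactory receptor arrays gave 481 of them, 477 with at least 50% overlap. In the other arrays the balance was reversed, with 358 of 529 pairs (67.7%) below 20% and 162 (30.6%) at 50% or above. No overlap at all was found in 340 pairs. Limits of 20% and 50% were chosen after these values were seen. They divided the arrays into 76 "successive" arrays with 245 models, in which every compared pair overlapped by less than 20%, 64 "stacked" arrays with 273 models, in which every compared pair overlapped by at least 50%, and 38 "mixed" arrays with 128 models. PACS2, a trafficking protein, counts as successive from 1 of its 3 pairs.

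**Figure D1:**
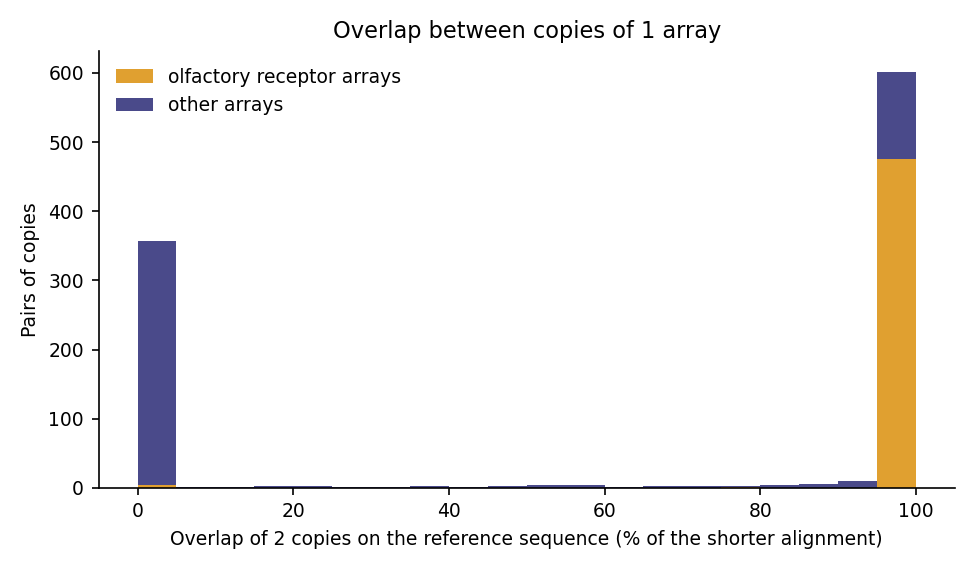
Number of pairs of copies by the overlap of their alignments on the reference sequence, as a percentage of the shorter alignment, with pairs from olfactory receptor arrays in orange stacked with pairs from other arrays in blue. Of 1010 pairs, 362 lie below 20% and 639 at 50% or above, and only 9 lie between.

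Most arrays were short. The 178 arrays comprised 115 with 3 models, 43 with 4 and 20 with 5 or more. The largest was OR2A2, an olfactory receptor, with 16 models. Arrays lay on 44 scaffolds, and 101 of them were on the plus strand. The 178 symbols had 62 further models elsewhere, and 131 arrays had none. Since the rule sets the smallest size and the models allowed elsewhere, these counts are descriptive.

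Neighbouring starts were a median of 9.99 kb apart (95% binomial interval of the median 9.26 to 11.1 kb, 468 distances, quartiles 5.69 and 20.3 kb). The shortest distance was 0.269 kb, between models of PLEKHA7, a cell junction protein. The longest was 96.7 kb, in COL22A1, a collagen chain. FETUB, a fetuin secreted by the liver, had a largest distance of 95.2 kb, and CD163L1, a scavenger receptor, had one of 95.1 kb. Just outside the limit of 100 kb lay OR51F1 at 114 kb, SIRPB1 at 118 kb and DNAH14 at 124 kb. The median span of an array was 38.4 kb. No neighbouring copies overlapped each other. Models of other symbols lay between the copies in a minority of cases, as 413 of 468 distances and 139 of 178 arrays were uninterrupted.

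Median spacing was smallest in successive arrays, given as a description without a test. Successive arrays had a median start distance of 6.01 kb (95% interval 5.23 to 7.50, 169 distances), mixed arrays 10.4 kb (9.34 to 13.6, 90 distances) and stacked arrays 12.6 kb (11.5 to 15.7, 209 distances). In olfactory receptor arrays the median was 11.2 kb (9.75 to 12.4, 153 distances). The 28 stacked arrays of other genes were spaced more widely, with a median of 23.5 kb (17.97 to 32.5, 66 distances). Intervals do not account for the shared location of copies within an array.

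**Figure D2:**
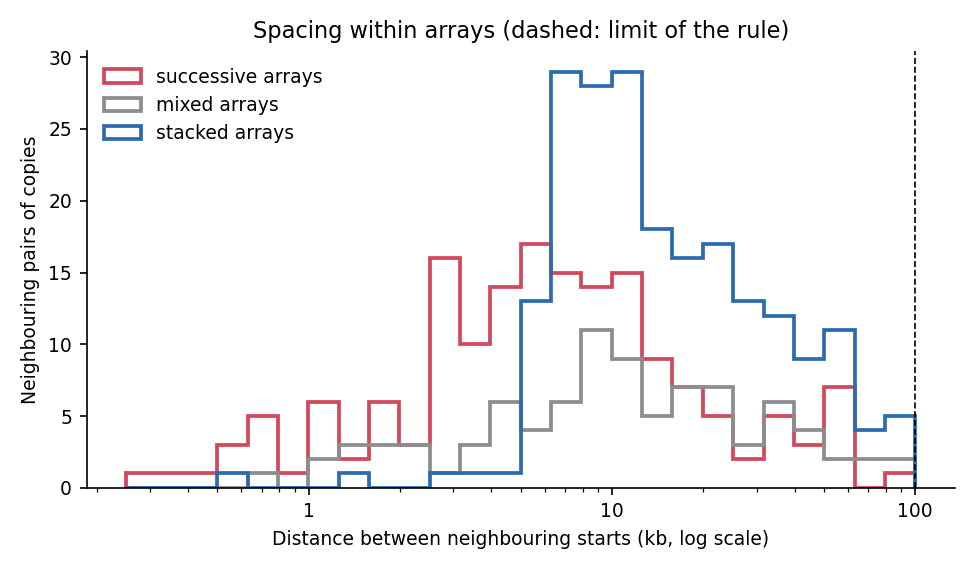
Distribution of the distance between neighbouring starts (kb, log scale) in successive, mixed and stacked arrays, with the number of neighbouring pairs on the vertical axis and a dashed line at the limit of 100 kb. Successive arrays had a median of 6.01 kb and stacked arrays 12.6 kb.

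In the 76 successive arrays the copies aligned to different stretches of a long reference, in the order of transcription. The order followed transcription in 75 of them. For PACS2 it was not defined, because its copies were aligned in both bases and residues. Between neighbouring copies that were aligned in bases to 1 reference sequence, a median of 163 bases of the reference were left unaligned (quartiles 48.5 and 375, 115 pairs of neighbours). In 30 of these pairs the stretches were at most 50 bases apart or overlapped. All copies of a successive array aligned to 1 reference sequence in 43 of the 76, and to more than 1 in the other 33. The copies of an array together covered a median of 86.2% of the stretch they reached. In 69 of the 76 arrays no model of another symbol lay between the copies.

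Several large genes showed this layout. RYR1, the ryanodine receptor that releases calcium in skeletal muscle, had 3 models on the plus strand of scaffold 36, with 34, 54 and 14 exons. In transcription order they aligned to reference bases 129 to 5520, 5631 to 12706, and 13562 to 15164. The 3 RYR1 models aligned to 3 different reference sequences of that symbol, so their positions may not be on 1 numbering. RYR1 was singled out after its values were seen. It had the most exons in total among successive arrays, 102. Next came LRP1, a large endocytic receptor, with 71 exons in total on scaffold 34. Its 3 models had 56, 12 and 3 exons and aligned to bases 534 to 12057, 12094 to 13821, and 13841 to 13983. The scores of these models, as deposited, were 6958, 1308 and 207.

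ABCA4, the retinal lipid transporter, had 4 models on the minus strand of scaffold 21. By position they had 10, 9, 16 and 10 exons and aligned to bases 5301 to 6490, 4329 to 5300, 1770 to 4300 and 285 to 1659. On the minus strand a falling order by position is a rising order in transcription. IGF2R, the receptor that clears insulin-like growth factor 2, had models of 39, 6 and 2 exons on scaffold 31, aligned to bases 474 to 5983, 6217 to 6997 and 7142 to 7622. COL5A1, a chain of fibrillar collagen, had 34, 4 and 5 exons on scaffold 15, and EP400, a chromatin remodelling protein, had 5, 9 and 29 exons on the minus strand of scaffold 27. In IGF2R, COL5A1 and EP400, 1 model held most of the exons, and the other models aligned to later bases of the reference.

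Other successive arrays were less even. FAT1, a giant cadherin, had 1 model of 28 exons after 2 single-exon models, and its neighbouring starts were 0.864 and 0.722 kb apart. MUC5B, a gel-forming mucin, had models of 5, 4, 2 and 1 exons that covered 12.2% of the stretch from their first to their last aligned base. COL22A1 had 3, 16 and 13 exons and covered 55.9%.

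**Figure D3:**
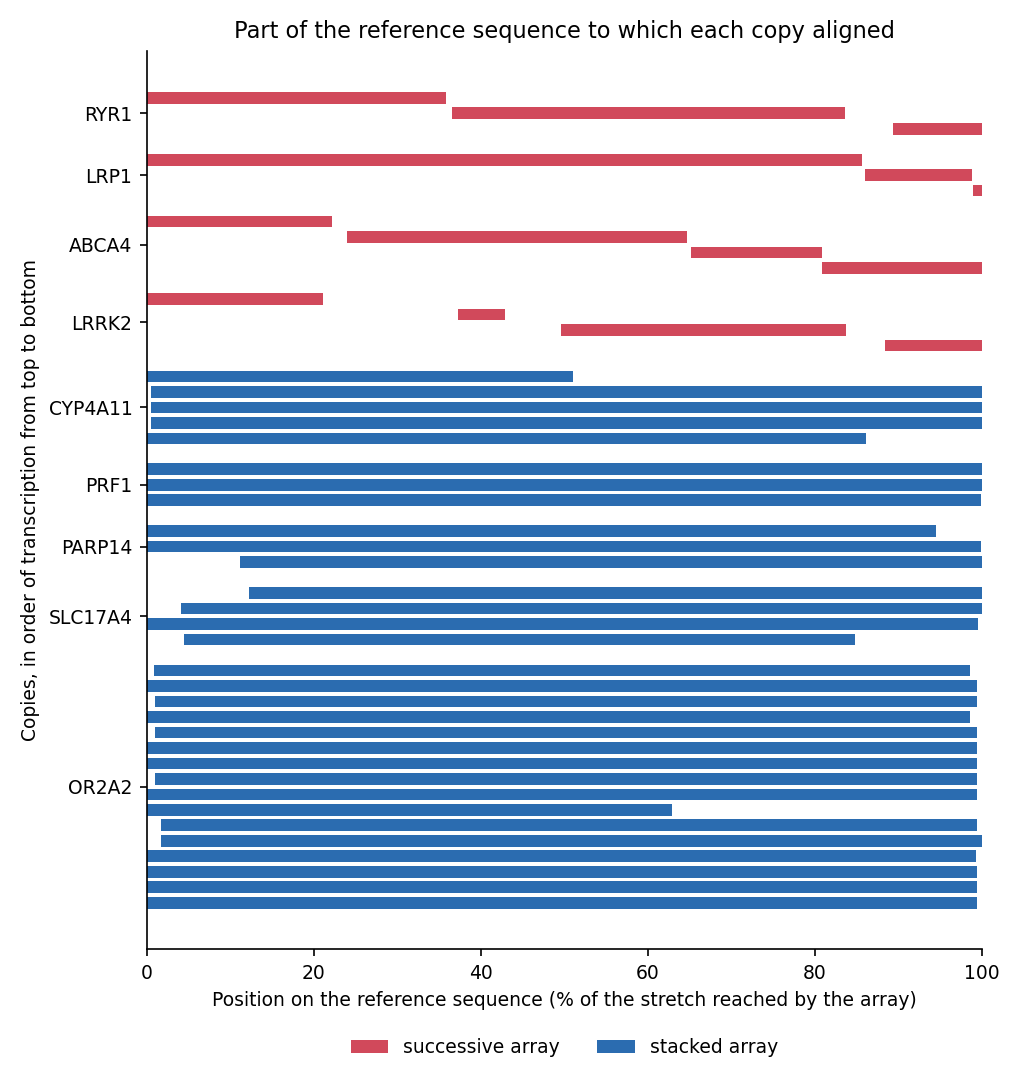
Stretch of the reference sequence to which each copy aligned, as a percentage of the stretch reached by the array, with 1 bar per copy in transcription order from top to bottom, for 4 successive arrays (red) and 5 stacked arrays (blue). Bars of RYR1, LRP1, ABCA4 and LRRK2 follow one another, while bars of CYP4A11, PRF1, PARP14, SLC17A4 and OR2A2 lie over the same stretch; LRRK2, RYR1, PARP14 and SLC17A4 were chosen after their values were seen.

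A small group of successive arrays had no model with more than 2 exons. These were FAM91A1, GNPTAB, KPNB1, PLEKHA7, RC3H1 and SMG5, with 19 models in all. RC3H1 and SMG5 were named after their values were seen. All 6 symbols also had models elsewhere, whereas 8 of the other 70 successive arrays did. GNPTAB, a subunit of the enzyme that tags lysosomal proteins, had 4 single-exon models within 3.35 kb on scaffold 14, aligned to bases 194 to 714, 874 to 1350, 1404 to 2573 and 2902 to 3782. KPNB1, the nuclear import receptor importin beta, had models of 2, 1 and 1 exons within 1.74 kb on the minus strand of scaffold 22. PLEKHA7 and FAM91A1 had start distances between 0.269 and 1.23 kb and between 0.675 and 1.06 kb.

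In the 64 stacked arrays the copies aligned to the same stretch, and olfactory receptors made up most of them. The aligned stretch can be much shorter than the model, so the layout need not describe whole copies. OR4B1, chosen after its values were seen, reached only bases 670 to 900, with a longest copy of 946 bp. CD163L1 reached bases 2733 to 4105, with a longest copy of 6075 bp. There were 36 stacked olfactory receptor arrays and 28 of other genes. Only B3GALT5, a galactosyltransferase named after its values were seen, had alignment starts in transcription order among the stacked arrays, and the order was undefined in 3. Starts had to rise strictly, so arrays with copies that share a first base could not qualify, and no contrast with successive arrays is drawn from this. The longest copy had a median of 2 exons in stacked arrays and 10 in successive arrays.

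CYP4A11, a cytochrome P450 that hydroxylates fatty acids, was the sole array among 42 cytochrome P450 symbols once CYP17A1, which would also meet the rule, was left out. Its 5 models lay within 94.9 kb on the plus strand of scaffold 2, from base 73946119 to base 74041028 of the assembly talOcc3. The models had 6, 12, 12, 12 and 11 exons and 781, 1527, 1527, 1530 and 1299 bp of exon. The middle 3 were alike in exon number and within 3 bp in length, and aligned to the same reference bases, 52 to 1577. The first aligned to bases 44 to 826 and the last to bases 44 to 1365 of a second reference sequence of the same symbol, and both outer copies were shorter than the middle 3.

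PRF1, perforin, the pore-forming protein of cytotoxic lymphocytes, was the only array with more than 1 exon in which every copy had the same exon number. Its 3 models on the minus strand of scaffold 11 had 2 exons each. Each held 1668 bp of exon. Their scores were 1231, 1244 and 1216. Their starts lay 23.4 and 85.1 kb apart. The array spanned 302 kb, of which the model farthest along the scaffold took 193 kb.

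PARP14, an ADP-ribosyltransferase of the interferon response, was chosen after its values were seen. Its 3 models on scaffold 4 had 15, 17 and 17 exons and 4890, 5415 and 5379 bp of exon. SLC17A4, a phosphate and urate transporter also chosen in this way, had 4 models on scaffold 40 with 9, 11, 11 and 10 exons and 1188, 1467, 1452 and 1299 bp. Copies in these 2 arrays differed by no more than 2 exons.

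In other stacked arrays the copies differed more. CD163L1 had 5 models on scaffold 34 with 6, 12, 9, 28 and 13 exons, and between 1242 and 6075 bp. IFIT2, an interferon-induced RNA-binding protein, had 7, 3 and 1 exons in its 3 models on scaffold 11. GIMAP5, a GTPase of lymphocytes, had 2, 3 and 5 exons on scaffold 5, and FETUB had 8, 5 and 9 on scaffold 4. LOC374443 had 4 models on scaffold 34 with 4 to 6 exons and the largest median start distance of any array, 75.6 kb.

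Mixed arrays held both low and high overlaps. In 10 of the 38 all copies aligned to 1 reference sequence, including DDX60 and HSPA1A. The copies of KIAA1109, NLRP1, PRSS36 and ALDH4A1 aligned to 2 or 3 sequences of the same symbol, which may be numbered differently. DDX60, a helicase of antiviral defence, had models of 34, 25 and 9 exons, aligned to bases 2210 to 3133, 1889 to 5331 and 367 to 1851. The first of these lay inside the stretch of the second, and the third lay before both. The model of 34 exons held 4661 bp of exon, far more than the stretch that placed it. KIAA1109, a lipid transfer protein, had 12, 23, 3 and 51 exons in 4 models. NLRP1, an inflammasome sensor, had 6, 3, 8 and 18. PRSS36, a serine protease, and ALDH4A1, a proline-degrading enzyme of mitochondria, had 3 models each, with 3, 3 and 6 exons and 7, 5 and 4 exons. HSPA1A, a heat shock protein, had 3 single-exon models of 276, 276 and 324 bp that aligned to the reference in reverse.

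Olfactory receptors formed 39 of the 178 arrays and held 192 of the 646 models. Of 267 olfactory receptor symbols, 14.6% had an array, against 0.986% of all symbols. Of the 893 olfactory receptor models in the annotation, 192 lay in arrays. Of the 39 arrays, 20 lay on scaffold 18, which held 275 olfactory receptor models and 30 arrays in all, and those 20 arrays comprised 98 models. In olfactory receptor arrays 477 of 481 pairs of copies (99.2%) overlapped by at least 50%. OR4P4, OR2F1 and OR52N2 were mixed rather than stacked, the last 2 being named after their values were seen.

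The largest array, OR2A2, had 16 models within 145 kb on the plus strand of scaffold 5. Of the 16 copies, 14 had 1 exon and 2 had 2 exons. Coding lengths ran from 615 to 933 bp, and 13 copies were longer than 900 bp. Scores ran from 378 to 752. The copy of 615 bp was the one with the lowest score, and it aligned to bases 1 to 585, whereas the others reached base 916 or beyond. Start distances within OR2A2 ranged from 5.51 to 20.045 kb, so no gap approached the limit.

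OR5B3 had 11 models within 260 kb on the plus strand of scaffold 18. Their lengths were 867 to 942 bp, and 10 of them had a single exon. The model with 2 exons was the shortest and had the lowest score, 409, against 708 to 967 in the others. Its largest start distances were 92.7 and 50.4 kb, between the last 3 copies. OR4C45, with 9 models on scaffold 18, held 1 model of 3 exons and 1032 bp, 1 of 342 bp that aligned to bases 574 to 910, and 7 single-exon models of 918 to 927 bp.

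Some olfactory receptor arrays were more uniform in length. The 6 models of OR5B12 were 942 to 951 bp long and aligned to the same bases, 23 to 964. The 6 of OR4C11 were 921 to 933 bp, with scores of 1030 to 1161. In OR4L1, 3 models scored 1003 to 1092 and 3 scored 402 to 500, although all 6 were 933 to 957 bp long. A similar gap stood in OR5AN1, where 3 models scored 973 to 983 and 5 scored 406 to 490. Of the 6 models of OR6N2, 4 scored 857 to 952 and 2 scored 259 and 276, and the last 2 were aligned in residues.

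Other families had few arrays each, and their shares of symbols with an array are given beside the 0.986% over all symbols. The share was 5.63% in keratins, 4.55% in phase II and xenobiotic enzymes and 3.70% in taste and vomeronasal receptors. It was 3.26% in immune receptors, 1.76% for the reproduction-linked prefixes and 1.26% in solute carriers and ABC transporters. Cytochromes P450, with CYP17A1 left out as an array, stood at 2.38%. Secreted carriers and mucins stood at 2% and serine proteases and their inhibitors at 1.10%, with 1 array in each. Interferons, chemokines and antimicrobial peptides, also with 1 array, lay below the share over all symbols, at 0.862%. TAS2R42, a bitter taste receptor, was the only array among 27 taste and vomeronasal receptor symbols, and its 3 single-exon models were 957, 940 and 939 bp long. Keratins and keratin-associated proteins had 4 arrays among 71 symbols. KRTAP19-1, a hair keratin-associated protein, had 4 models of 294, 306, 273 and 291 bp. Immunoglobulins, MHC and immune cell receptors had 3 arrays among 92 symbols, of which CD163L1 entered through its prefix CD1. Solute carriers and ABC transporters had 5 arrays among 397 symbols, 4 of them successive. Phase II and xenobiotic enzymes had 3 among 66, and the prefixes grouped as reproduction-linked had 5 among 284. The last 5 were ADAMTS13, DDX60, MAGEB16, NLRP1 and SPATA21, which the prefixes put together whatever their function. Their number was 2 with no model allowed elsewhere and 14 with no limit.

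Several families had no array. The rule was met by 0.986% of all symbols, so 0 arrays in a small family says little about it. Zinc finger proteins had 0 arrays among 272 symbols, protocadherins 0 among 21, and globins 0 among 3. Histones had 0 among 20, but 1 with starts within 200 kb, with no limit on models elsewhere or with either strand. Steroid metabolism enzymes had 0 among 47 only because CYP17A1, which has 3 models and would meet the rule, was left out. Ribosomal and other housekeeping proteins also had none among 185 symbols, although 75 of these symbols had 3 or more models. No listed family held 114 of the 178 arrays. Families were assigned by symbol prefix.

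Exon number was not part of the rule, and by layout it matched the longest copy least often in successive and mixed arrays, whose intervals overlap. The longest copy had a median of 10 exons in successive, 11 in mixed and 2 in stacked arrays. An equal number is easier to reach with few exons, so the layouts are not compared on equal terms. Copies were compared with the longest copy of their array by summed exon length. Over all arrays, 147 of 468 other copies (31.4%, Wilson 95% interval 27.4 to 35.8) had the exon number of the longest copy. In successive arrays it was 17 of 169 (10.1%, 6.38 to 15.5) and in stacked arrays 117 of 209 (56.0%, 49.2 to 62.5). Olfactory receptor arrays reached 109 of 153 (71.2%, 63.6 to 77.8). Stacked arrays of other genes stood at 16 of 66 (24.2%, 15.5 to 35.8), and mixed arrays at 13 of 90 (14.4%, 8.64 to 23.2). Among symbols with 3 or more models but no array the share was 981 of 3114 (31.5%, 29.9 to 33.2).

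Exon length gave the same order of the 3 layouts. Copies with at least 80% of the exon length of the longest were 26 of 169 (15.4%, 10.7 to 21.6) in successive, 23 of 90 (25.6%, 17.7 to 35.4) in mixed and 168 of 209 (80.4%, 74.5 to 85.2) in stacked arrays. Over all arrays the share was 217 of 468 (46.4%, 41.9 to 50.9), and in olfactory receptor arrays 142 of 153 (92.8%, 87.6 to 95.9). It was 1128 of 3114 (36.2%, 34.6 to 37.9) in symbols with 3 or more models and no array. Stacked arrays of genes other than olfactory receptors stood at 34 of 66 (51.5%, 39.7 to 63.2). Every copy reached 80% in 39 of the 64 stacked arrays, and most of these 39 were olfactory receptor arrays. Copies of 1 array share their source, so intervals cover counting error only.

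**Figure D4:**
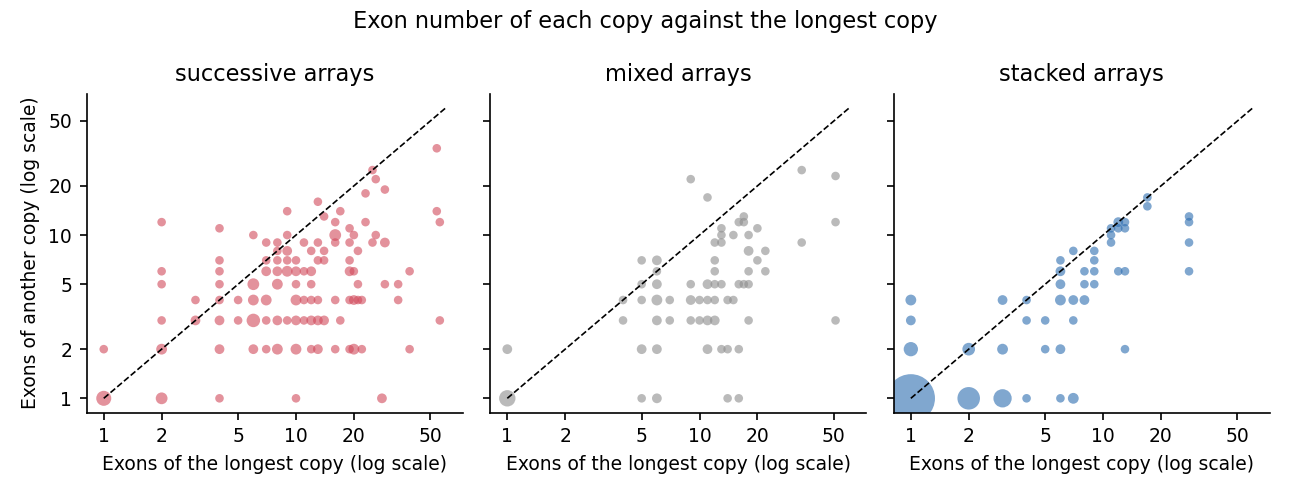
Exons of each copy against exons of the longest copy of its array (log scales), for successive, mixed and stacked arrays, with point area by number of copies and a dashed line at equal numbers. In successive arrays 17 of 169 copies lie on the line and in stacked arrays 117 of 209, most of these at 1 exon.

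Single-exon models made up 214 of 646 array models (33.1%, 29.6 to 36.8). Olfactory receptors accounted for most of them, with 170 of 192 (88.5%, 83.3 to 92.3), against 44 of 454 (9.69%, 7.30 to 12.8) in the other arrays. The share was 2296 of 3659 (62.7%, 61.2 to 64.3) in symbols with 3 or more models and no array, 2458 of 15690 (15.7%, 15.1 to 16.2) in symbols with 1 model, and 5771 of 23336 (24.7%) over all models. With olfactory receptors left out there too, symbols with 3 or more models and no array had 1945 of 3210 (60.6%, 58.9 to 62.3), so the share in arrays of other genes was lower.

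The model named without a copy number had the highest score in each of the 163 arrays that held one. The source of the models also differed with layout. In successive arrays 215 of 245 models carried the source label EVM and 30 exonerate. In stacked arrays 49 were EVM, 154 ALN and 70 exonerate. Olfactory receptor arrays had 0 EVM models, 139 ALN and 53 exonerate, while stacked arrays of other genes had 49 EVM, 25 ALN and 20 exonerate.

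A second annotation, RefSeq's of a different assembly of the same species, gave a count of genes between the same flanking genes. RefSeq has 21597 protein-coding genes, of which 5598 have no symbol. The nearest flanking genes could be found in RefSeq for 90 arrays. RefSeq had fewer genes there than the deposited annotation had models in 78 arrays (86.7%, 78.1 to 92.2), as many in 6 and more in 6. Each array was chosen for its number of models, so the rule sets a lowest count for the deposited annotation but not for RefSeq. This choice by itself favours fewer genes in RefSeq, and the Wilson interval does not account for it. No share is given for flanking genes without an array between them. Among the 54 successive arrays, 51 had fewer, 33 had exactly 1 gene, and 49 had the array's symbol once. RefSeq named 75 of the 76 successive symbols once. Of the 64 stacked symbols, 8 occurred once in RefSeq and 56 did not occur. An absent symbol need not mean an absent gene, since RefSeq genes near stacked arrays often had no symbol. That held for all 12 genes between AHSG and HRG and all 191 between LRRC55 and PTPRJ.

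In the named successive arrays given here, RefSeq had fewer genes than the deposited annotation had models. Between RASGRP4 and MAP4K1 the deposited annotation had 3 RYR1 models and RefSeq had 1 gene, RYR1. Between GCLM and ARHGAP29 there were 4 ABCA4 models against 1 gene, and between DDX51 and PUS1 there were 3 EP400 models against 1. LRP1, between STAT6 and SHMT2, had 3 models against 2 genes. For GNPTAB and KPNB1, RefSeq had no protein-coding gene between the flanking genes, and each symbol occurred once in RefSeq outside that interval.

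Stacked arrays gave fewer such comparisons, since 8 of 64 could be placed by nearest flanking genes. RefSeq had fewer genes in 2 of those 8, as many in 3 and more in 3. PARP14, between HSPBAP1 and PARP15, had 3 models against 3 genes. FETUB lay between AHSG and HRG, with 6 models against 12 genes. PRF1, between NODAL and ADAMTS14, stood in an interval of 7 models and 11 genes. With flanking genes that have 1 model in both sources, CYP4A11 lay between PDZK1IP1 and EFCAB14, with 10 models against 7 genes, and 12 olfactory receptor arrays lay between LRRC55 and PTPRJ, with 151 models against 191 genes.

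**Figure D5:**
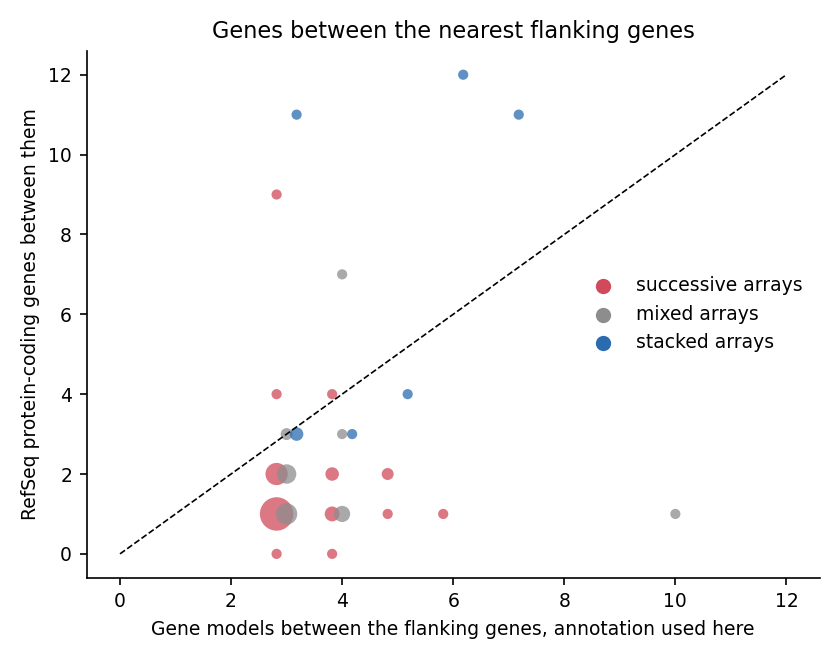
RefSeq protein-coding genes between the nearest flanking genes against models of the deposited annotation in the same interval, for the 90 arrays that could be placed, with point area by number of arrays and a dashed line at equal counts. Layouts are offset slightly sideways. Of 54 successive arrays, 51 lie below the line, and 2 of 8 stacked arrays do. The array rule sets a lowest count for models but not for RefSeq genes.

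A minority of arrays lay close to another array. The spans of 5 pairs overlapped, namely FETUB with KNG1, KLRB1 with LOC374443, LOC101927016 with LOC647264, OR11G2 with OR11H6, and OR4B1 with OR4P4. None of the 5 pairs held a successive array. Another array lay within 100 kb of 47 of the 178 arrays.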

How the data were processed

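Array members, gene families and layouts were chosen with earlier results of these data known, and the layout limits after the alignments were seen. The authors deposited gene models on the assembly talOcc3, with start and end positions in bp and a score per model. The definition of the score, and how models were named and combined, are not given in the sources used here. Exon and coding rows coincided in every model (0 differed), so exon length is coding length. Chromatin segmentations lie on other assemblies and were not used. Reads are not analysed here, and sequencing depth does not enter these counts.

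Each gene was paired with its mRNA by parent, scaffold, strand and overlap, since 3 identifiers in arrays occur on more than 1 row. The array finder was tested on simulated annotations. Of the 178 arrays, 3 (HSPA1A, LRRK2 and SMG5) align in residues and 4 (OR11G2, OR11H6, OR6N2 and PACS2) in both residues and bases, a reading inferred from alignment lengths. In 105 arrays all copies align to 1 reference sequence; elsewhere, positions on different sequences of the same symbol were compared. Shares have Wilson 95% intervals, and no test was made. RefSeq (assembly MPIMG_talOcc4v2.1) served only for names, gene order and counts of protein-coding genes between flanking genes.

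Named arrays were those with the most models (10), the 5 smallest and 5 largest median distances, 10 with equal exon numbers and 5 whose other copies have few exons, the largest of each family, any steroid enzyme, and 3 on each side of the limit. Alternatives varied the distance (50 and 200 kb), the number of models, models elsewhere, strand, merging, the longest copy, thresholds and flanking genes. Python 3.11.15, numpy 2.4.6, scipy 1.17.1, pandas 2.3.3 and matplotlib 3.10.9 were used.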

Additional observations from a re-analysis of the deposited data

How the results depend on the processing

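Leaving aside families other than olfactory receptors, 16 of 63 recomputed values moved. A move was by over 1.5 times for a count, or beyond the interval for a share or median. Merging overlapping models changed nothing, since no neighbours overlap. Of 112 values for the other families, many at 0 throughout, 18 moved. With at least 4 models per array, 63 arrays with 301 models remained in the count, of which 16 were successive, 12 mixed and 35 stacked. Stacked arrays numbered 38 with no model allowed elsewhere and 99 with no limit, and olfactory receptor arrays 21 and 70. Comparing only pairs on 1 reference sequence left 10 mixed arrays, with 84 successive and 69 stacked, and 15 arrays had no such pair. The share of copies with the exon number of the longest was 23.1% when the longest was chosen by exon number and 47.0% with 1 exon of difference allowed. The share by exon length was 67.5% at a threshold of 50% and 37.6% at 90%. Without olfactory receptors 9.69% of models had a single exon. With flanking genes that have 1 model in both sources, RefSeq had fewer genes in 63.2% of 163 arrays: 63 of 69 successive, 29 of 38 mixed and 11 of 56 stacked. Arrays can share an interval, and over the 140 distinct intervals RefSeq had fewer in 99 (70.7%): 61 of 67 with successive arrays only and 10 of 36 with stacked arrays only. Here too the array rule sets a lowest count for models but not for RefSeq genes. No paired analysis was possible because the annotation belongs to no sample, and for the same reason no replicate could be left out. Without a genome of this assembly, no sequence was compared, and whether a copy is a separate gene was not tested.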
